A study of Mus musculus with 4 samples.

Results

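The histone chaperone genes described here are 10 picked by symbol: Ssrp1 and Supt16, which encode the subunits of FACT, together with Supt6, Asf1a, Asf1b, Chaf1a, Chaf1b, Nap1l1, Hira and Daxx. They are 10 of the 12486 genes in the count table, and all 10 were among the 11853 genes that passed the filter on low counts. The genes were picked with the response of this experiment already known, so their changes are given as a description. Calls and intervals for them come from the fit over all genes and are no independent evidence. PRO-seq, which counts RNA polymerase engaged on each gene from the growing ends of nascent RNA, was performed in mouse embryonic stem (mES) cells whose Zfp574, a zinc-finger transcription factor, carries an N-terminal auxin-inducible degron (AID). In these cells the plant protein OsTir1, expressed from an EF1a promoter, sends the tagged protein to the proteasome once the auxin IAA is given. The control group comprised 2 libraries of cells without IAA (0 h), and the depletion group 2 libraries of cells after 6 h of 500 µM IAA.

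Both groups carry the tag and OsTir1, the line was made by picking individual clones (their number in these libraries is not stated), and parental cells given IAA were not analysed here, so loss of Zfp574 and exposure to auxin cannot be told apart. Library totals ran from 3298864 to 6045216 counts, both depletion libraries being deeper than both controls (the part of depth in the results was not tested), and libraries of a group differed by more than sampling noise (chi-square per degree of freedom 1.88 between controls and 1.49 between depletion libraries). Of 10 stem cell markers, 8 were tested, with a summed level of 2724 to 2767 CPM (counts scaled by the adjusted library total) across the libraries. Esrrb made up most of this (1737 to 1767 CPM), so the sum says little of the other markers. Of 7 primitive endoderm markers, 3 had a row in the count table. Sox7 was tested (13.5 and 13.4 CPM before IAA, 11.1 and 10.7 after it). Sox17 and Foxa2 had at most 8 counts in any library. Thy1, the one fibroblast marker with a row, had 3 to 9 counts. Zfp574 itself, whose protein and not whose transcription the degron removes, had 24.0 and 35.5 CPM before IAA against 32.8 and 39.0 after it, which overlapped.

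Histone chaperones escort histones away from and back onto DNA and keep them from binding where they should not. FACT loosens nucleosomes in front of RNA polymerase II and the replication fork and rebuilds them behind, and Spt6, the product of Supt6, does related work on elongating polymerase. CAF-1, made of the Chaf1a and Chaf1b products with Rbbp4, places new H3 and H4 behind the fork, and receives them from Asf1. Hira, and Daxx with Atrx, deposit a replacement form of H3 outside replication, while Nap1l1 carries H2A and H2B.

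After depletion, polymerase on Ssrp1, the smaller FACT subunit with an HMG box, stood 2.31-fold lower than in the controls, whereas under the same TMM scaling with all libraries each of the other 9 genes lay within 0.15 of 0 on the log2 scale. Control replicates 1 and 2 gave 136 and 154 Ssrp1 counts, and the more deeply sequenced depletion replicates 115 and 93. Scaled to library size this was 40.9 and 42.0 CPM in the controls against 19.3 and 16.6 CPM after depletion, or 41.5 ± 0.820 (SD, n = 2) against 17.9 ± 1.96. Both depletion libraries lay below both controls. On the log2 scale the difference was -1.21 ± 0.13 (SE), with a 95% interval of -1.48 to -0.93. It was the only one of the 10 genes called lower at an adjusted p under 0.05 and at least 2-fold, in a comparison where 38 of 11853 genes, 0.321%, were called lower. No gene was called higher in edgeR's quasi-likelihood test, in DESeq2 or in limma-voom, while 7 were at least 2-fold higher at an unadjusted p under 0.05 in edgeR. Since Ssrp1 was picked from this comparison, nothing is read from that count. By the size of its fall Ssrp1 ranked 29 among the 38 genes, and by mean count it ranked 6.

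Sequences at the start of Ssrp1 are shown because they set it beside its partner and beside other genes called lower. Ssrp1 (ENSMUSG00000027067) lies on the plus strand of chr2:85037234-85047109 in mm10, and Supt16 (ENSMUSG00000035726) on the minus strand of chr14:52160414-52197416. Promoter windows from RefSeq on GRCm38.p6, the same assembly as mm10, reach from 250 bases before a transcript start to 50 after it. They were held for all 10 genes, in 13 windows, and for 9295 of the genes tested. Words of 8 bases were counted on both strands in the 33 genes called lower that are not among the 10 and have a window, and the word with the largest excess over all tested genes was CCATAGAG. It occurred in 10 of the 33 (30.3%) against 1.31% of the tested genes and 1.03% of all 32851 windows, and in none of the windows of the 10 chaperone genes. The leading word of 9 bases, ACCATAGAG, overlaps it and was likewise absent from them (8 of the 33, 0.624% of tested genes, 0.374% of all windows). The leading word of 7 bases, GGCTAGA, stood in 13 of the 33 (39.4%), against 4.59% of tested genes and 3.31% of all windows. Among the chaperone genes it occurred in Ssrp1 alone. Each leading word was picked for having the largest excess in these same called genes. A large excess therefore follows from the search, and it was not tested.

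A further word was chosen after these results were seen, as the 8-base word of the Ssrp1 windows with the largest excess among the other called genes. This word, CGCTCTAG, shares the letters TCTAG with TCTAGCC, the reverse complement of GGCTAGA. It occurred in 7 of the 33 (21.2%), in 1.67% of tested genes and in 0.728% of all windows. Its presence in Ssrp1 and its excess follow from how it was chosen. Of the other chaperone genes only Supt16 held it, and Supt16 was not called lower (log2 fold change -0.04). The sites below are shown 5′ to 3′ with 10 bases of flank, read on the strand that spells the word, which is in capitals. Beside the FACT pair stand the 5 sites of the 4 called genes that, like it, hold the word on the strand of the gene. The other called genes that hold it, Thg1l, Mrnip and Zscan26, have it on the opposite strand and are not shown.
Ssrp1, chr2:85037110-85037117: ggagtgccgaCGCTCTAGgcgaatgtac
Supt16, chr14:52197290-52197297: aaatcttcgaCGCTCTAGggacccggaa
Ncbp3, chr11:73047799-73047806: aaacagacgaCGCTCTAGgtgatagcgg
Ncbp3, chr11:73047843-73047850: tcggcgacggCGCTCTAGgcggcgggag
Arl14ep, chr2:106974459-106974466: ggctggcttcCGCTCTAGgctcctcctg
Eif3g, chr9:20898650-20898657: gcggtctggcCGCTCTAGgctgcggccg
Fyttd1, chr16:32877704-32877711: tcgcgtgggcCGCTCTAGccgcccgcag

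The Ssrp1 site begins 10 bases before the first RefSeq start (85037120) and 124 bases before the GENCODE start (85037234), within an annotated P2rx3 transcript on the opposite strand but outside its exons. The Supt16 site begins 58 bases before its RefSeq start, which GENCODE places farther upstream, so that in GENCODE the site falls in a 5′ UTR exon, 120 bases into the gene. GGCTAGA lies on the opposite strand just past the first start of Ssrp1, from base 35 of the transcript. The site reads as follows on the strand of the gene, with the reverse complement of the word in capitals.
Ssrp1, chr2:85037154-85037160: atgatgccgtTCTAGCCaagtcttcc

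These are matches of letters and not measured binding. The study mapped Zfp574 binding by Cut&Run, which was not analysed here. The first Ssrp1 window also had the fewest CpG dinucleotides of the 13, at 15, against up to 35 in the others and a median of 21 over the windows of tested genes. The second Ssrp1 window had 31 and held neither CGCTCTAG nor GGCTAGA. Which start these cells use was not tested.

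Supt16, the larger FACT subunit and a binder of H2A and H2B, stayed near its control level. Its counts were 823 and 913 in control cells against 1447 and 1351 in depleted cells, or 247 and 249 CPM against 243 and 240. Both depletion libraries lay below both controls, but by little. The log2 fold change was -0.04 ± 0.06 (SE), with a 95% interval of -0.16 to 0.08.

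**Figure D1:**
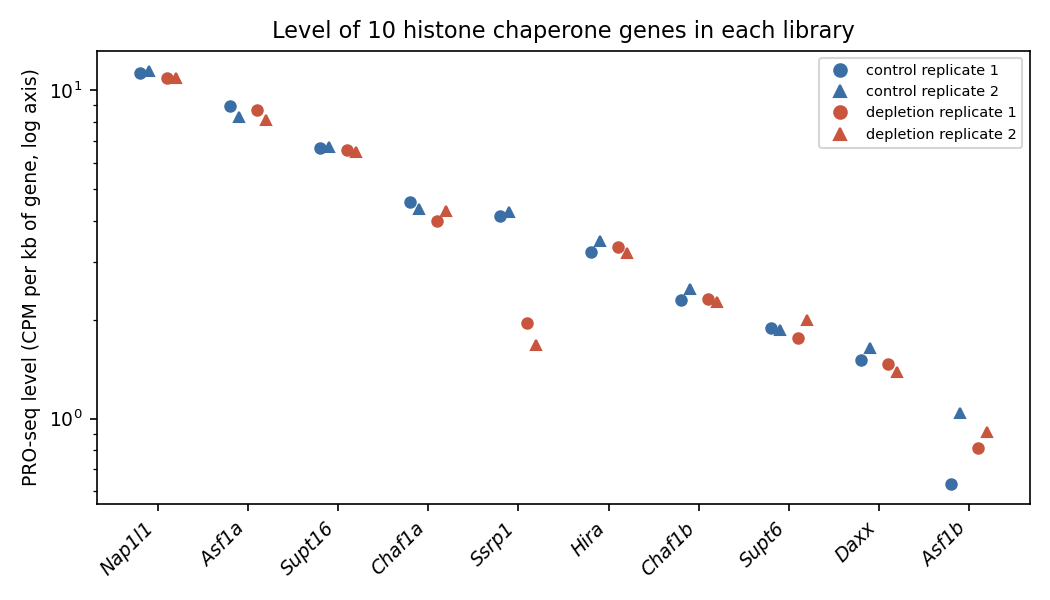
PRO-seq level of each of the 10 genes, in CPM per kb of annotated gene on a log axis, ordered by the control mean. Circles and triangles are replicates 1 and 2, blue control and red depletion. Ssrp1 is the gene whose depletion libraries (1.96 and 1.68) stand clearly apart from its controls (4.14 and 4.26).

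Because both genes encode parts of a single complex, the Ssrp1 counts were also set against the Supt16 counts of the same library, a measure that no scaling of libraries can move. Ssrp1 made up 14.2% of the summed counts of the pair in control replicate 1 (136 of 959, exact 95% binomial interval 12.0 to 16.6%) and 14.4% in control replicate 2 (154 of 1067, 12.4 to 16.7%). In depletion replicate 1 its share was 7.36% (115 of 1562, 6.12 to 8.77%), and in replicate 2 it was 6.44% (93 of 1444, 5.23 to 7.83%). These intervals cover counting error only, and since Ssrp1 was picked from this comparison the shares are a description. Per kb of gene, polymerase on Ssrp1 was 0.626 ± 0.00907 (SD, n = 2) of that on Supt16 in the controls and 0.278 ± 0.0282 after depletion, a ratio 0.444 times its control value. With 2 libraries against 2, no exact permutation test of a single value could reach p under 0.05, and none was made.

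**Figure D2:**
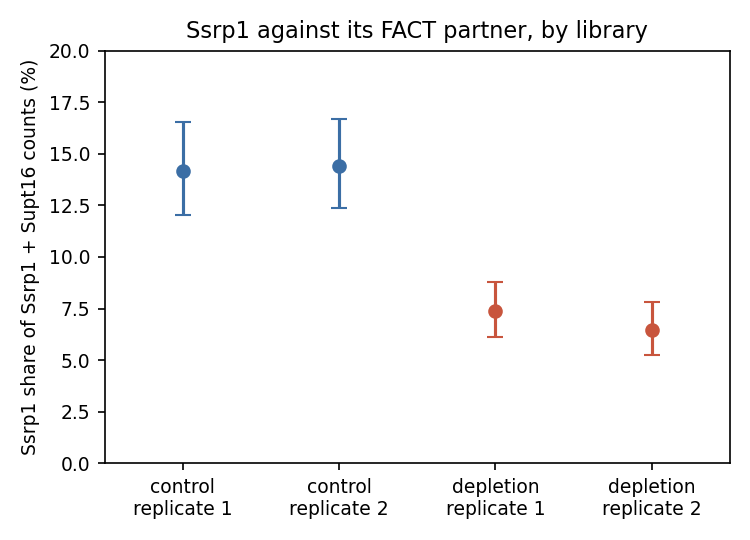
Share of Ssrp1 in the summed Ssrp1 and Supt16 counts of each library, in percent, with exact 95% binomial intervals as bars. The controls (blue) stand at 14.2 and 14.4% and the depletion libraries (red) at 7.36 and 6.44%.

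The chaperones of elongation and of H2A and H2B stayed close to their control levels. Supt6, the Spt6 gene, gave 246 and 268 control counts and 412 and 439 in depleted cells, or 73.9 and 73.1 against 69.2 and 78.1 CPM. The depletion libraries fell on either side of the controls, and the log2 fold change was 0.001 with a 95% interval of -0.18 to 0.19. For Nap1l1 these were 938 and 1042 against 1616 and 1529 counts, or 282 and 284 against 271 and 272 CPM. Its replicates agreed closely and its depletion libraries were both slightly lower, with a log2 fold change of -0.06 and an interval of -0.17 to 0.06.

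Among the H3 and H4 chaperones that act at the fork, Chaf1a, the large CAF-1 subunit, gave 484 and 508 control counts and 760 and 766 in depleted cells. This was 145 and 139 CPM against 128 and 136, and the log2 fold change was -0.11 with a 95% interval of -0.25 to 0.04. Its libraries did not overlap, though the gap between groups was narrower than that between replicates. Chaf1b, the middle CAF-1 subunit, had 51.1 and 55.1 CPM before and 51.4 and 50.4 CPM after IAA, which overlapped, with a log2 fold change of -0.06 and an interval of -0.27 to 0.14. Per kb, the ratio of Chaf1a to Chaf1b was 1.99 and 1.75 before IAA against 1.73 and 1.89 after it, so the libraries of the groups overlapped for CAF-1 where those for FACT did not. The difference between these ratios was not tested.

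Asf1a and Asf1b, paralogs that hand H3 and H4 to CAF-1 and Hira, differed in level more than in response. Asf1a had 112 and 103 CPM before IAA against 108 and 101 after it, with a log2 fold change of -0.03 and a 95% interval of -0.19 to 0.12. Asf1b gave only 31 and 56 control counts against 71 and 75 in depleted cells, and its controls differed from each other (9.32 and 15.3 CPM, against 11.9 and 13.3). Its log2 fold change of 0.02 had an interval of -0.41 to 0.45, and leaving out control replicate 2 or control replicate 1 moved it to 0.44 or -0.28.

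Of the replication-independent pair, Hira, the gene of the scaffold of its complex, had 299 and 324 CPM before IAA against 310 and 297 after it. The libraries overlapped, and the log2 fold change was -0.04 with a 95% interval of -0.16 to 0.08. Daxx was the gene with the fewest counts after depletion, 54 and 48, against 31 and 37 in the controls. Its CPM of 9.32 and 10.1 before IAA against 9.07 and 8.54 after it gave a log2 fold change of -0.14. Its 95% interval was -0.59 to 0.31, the widest of the 10.

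**Figure D3:**
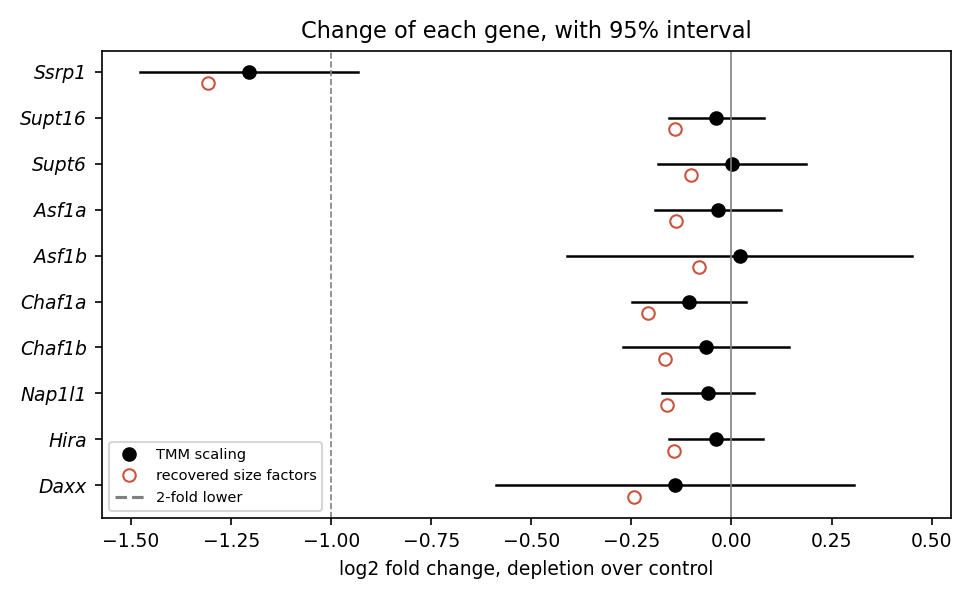
Log2 fold change (depletion over control) of the 10 genes under TMM scaling (black points) with 95% intervals (bars), and under the size factors recovered from the authors' mean signal (open red points). The dashed line marks a 2-fold fall. Ssrp1 stands at -1.21, and the intervals of the other 9 genes cross 0 under TMM.

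Over the 9 genes other than Ssrp1 the median log2 fold change was -0.04, against -0.002 over all genes tested, and they ranged from -0.14 (Daxx) to 0.02 (Asf1b). With no fold required, none of them passed an adjusted p under 0.05 in edgeR's quasi-likelihood test, in DESeq2 or in limma-voom, where edgeR passed 1.4% of all genes as lower and 1.11% as higher. None had an unadjusted p under 0.05 in edgeR either, which 7.66% of all genes had as lower and 8.53% as higher. In 5 of the 10 genes (Ssrp1, Supt16, Chaf1a, Nap1l1 and Daxx) both depletion libraries lay below both controls, a separation seen in 22.9% of all genes, and in the other 5 the groups overlapped. When libraries were scaled by the size factors recovered from the authors' mean normalized signal, the median of all genes moved to -0.10 (log2) and that of the 9 genes to -0.14, so that Supt6 and Asf1b changed sign (-0.10 and -0.08) and Daxx and Chaf1a reached -0.24 and -0.21. Ssrp1 was -1.31 on that scale. It was called lower under each of the other scalings, tests and filters tried, and with any single library left out.

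Before IAA the order of levels per kb was Nap1l1 (11.4 ± 0.0709 CPM per kb, SD, n = 2), Asf1a (8.62 ± 0.489), Supt16 (6.71 ± 0.0354), Chaf1a (4.46 ± 0.151), Ssrp1 (4.20 ± 0.0830), Hira (3.34 ± 0.191), Chaf1b (2.39 ± 0.129), Supt6 (1.87 ± 0.0141), Daxx (1.57 ± 0.0895) and Asf1b (0.837 ± 0.287). The control libraries of no neighbours in this order overlapped, the closest being Chaf1a at 4.35 and Ssrp1 at 4.26. After depletion Ssrp1 dropped from place 5 to place 8, below Supt6 (1.88 ± 0.161 CPM per kb) in the mean. Its libraries (1.96 and 1.68) then overlapped those of Supt6 (1.76 and 1.99). The other 9 genes kept their order. These levels use the annotated gene span, while the counted transcripts may be shorter.

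The genes whose pattern over the 4 libraries was most like that of Ssrp1 were sought among 7413 other genes averaging 100 counts or more, by the distance between log2 CPM values centred on each gene's mean. The nearest was Chpf2 (distance 0.0672), an enzyme of chondroitin sulfate synthesis, followed by Rpl10 of the large ribosomal subunit (0.144), the cap-binding gene Ncbp3 (0.228), Srp68 of the signal recognition particle (0.271) and the zinc-finger gene Zkscan3 (0.298). Their log2 fold changes lay between -1.30 for Rpl10 and -0.96 for Zkscan3. The measure rests on 4 libraries of control and depleted cells, so it mostly finds genes with a fall of like size. Ssrp1 was itself picked on that fall. Rpl10 has near-identical copies in the genome, and unique mapping drops reads they share.

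Genes that overlap the 10 or start within 2 kb of them were described beside them. Of 6 such neighbours tested, none passed an adjusted p under 0.05 in edgeR's quasi-likelihood test, and their log2 fold changes ran from -0.21 for Gm26590, a noncoding gene that starts 86 bp upstream of Supt16 on the other strand, to 0.11 for Sdf2 beside Supt6. At an unadjusted p under 0.05 the count was 0. P2rx3, which starts 228 bp into Ssrp1 on the other strand, was not analysed here. On the same strand, 4 genes overlap Chaf1b, Nap1l1 and Hira, and the reads of such genes cannot be told apart from those of the chaperone gene.

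Other genes of these pathways were taken from lists made by role, with earlier results of these data already known. Of 29 other histone chaperone genes, 13 lay below 0 and 16 above, with a median log2 fold change of 0.02 that turned to -0.08 under the recovered factors and to -0.02 without control replicate 2. None passed an adjusted p under 0.05 in edgeR's quasi-likelihood test, in DESeq2 or in limma-voom, while 1 was lower and 2 were higher at an unadjusted p under 0.05, against 7.66% and 8.53% of all genes. The lowest values were those of Tonsl (-0.28 ± 0.22, SE) and Znhit1 (-0.27 ± 0.25), and the highest those of Spty2d1 (0.46 ± 0.20), an H3 and H4 chaperone of elongation, and Ubn1 (0.25 ± 0.13), a partner of Hira. The genes that complete the complexes above, singled out after their values were seen, were Rbbp4 for CAF-1 at -0.16 ± 0.12 and Atrx for Daxx at 0.08 ± 0.05. Npm1, a nucleolar chaperone at -0.17 ± 0.05, passed with the recovered factors and with library totals. With replicate number added to the fit, Npm1 passed as lower and Anp32a (0.19 ± 0.06 without it) as higher.

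Of 13 tested partners of FACT and Spt6 in elongation, such as Spt4 and Spt5 and the PAF1 complex, 9 lay above 0, with a median of 0.08 that turned to -0.03 under the recovered factors and was 0.04 without control replicate 2. None passed the adjusted test in edgeR, DESeq2 or limma-voom, and 2 were higher and 0 lower at an unadjusted p under 0.05 in edgeR, against 8.53% and 7.66% of all genes. Values ran from -0.10 ± 0.15 (SE) for Supt4a and -0.05 ± 0.29 for Elof1 to 0.16 ± 0.06 for Setd2 and 0.91 ± 0.43 for Ctr9, the last on 8 and 7 control counts against 32 and 15 in depleted cells. Supt5 was at -0.04 ± 0.07.

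Of 16 partners of CAF-1 at the fork, 11 lay below 0, with a median log2 fold change of -0.11, or -0.04 without control replicate 1. None passed the adjusted test in edgeR, DESeq2 or limma-voom, and 5 were lower and 0 higher at an unadjusted p under 0.05, against 7.66% and 8.53% of all genes. The lowest were Rfc3, of the clamp loader, at -0.45 ± 0.20 (SE) and Mcm7, of the replicative helicase, at -0.22 ± 0.07, and the highest were Mcm4 at 0.06 ± 0.07 and Pola1 at 0.05 ± 0.04. Under the recovered factors the median was -0.22, and 5 of the 16 passed as lower (Mcm3, Mcm5, Mcm6, Mcm7 and Uhrf1), against 5.89% of all genes. Mcm3, Mcm5 and Mcm7 also passed with library totals and with replicate number added to the fit, and Mcm5 and Mcm7 among genes averaging 100 counts or more.

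**Figure D4:**
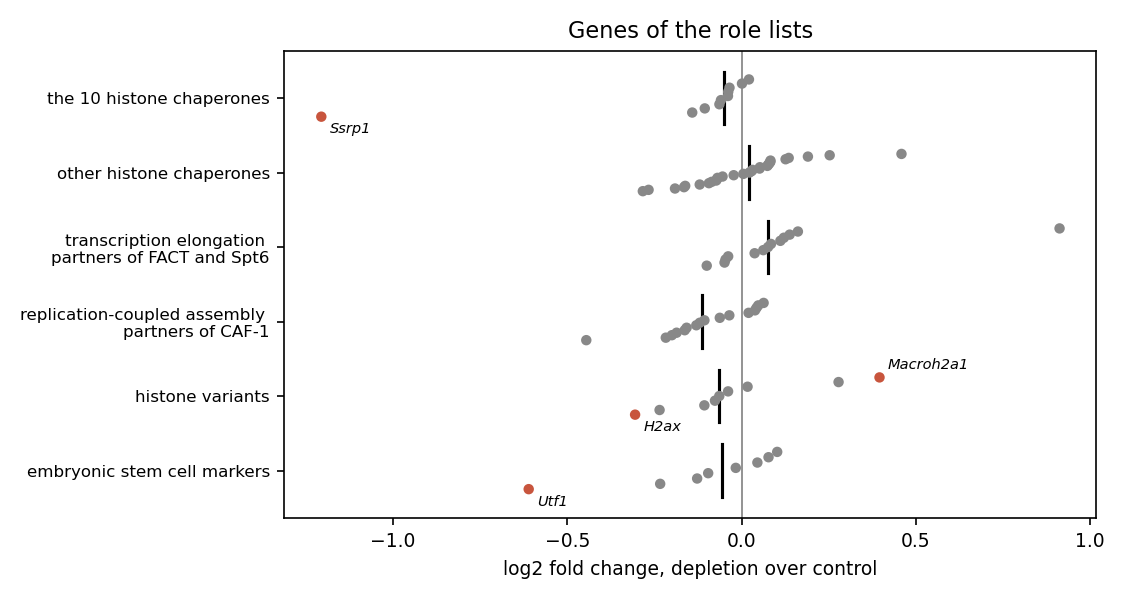
Log2 fold change of each tested gene, by list. Black ticks are list medians, and red points mark genes at an adjusted p under 0.05. Ssrp1 stands apart from the other chaperones at -1.21, and Macroh2a1, H2ax and Utf1 are the genes of the other lists that passed.

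Histone variants are the cargo of several of these chaperones. Of 9 tested genes, 1 passed an adjusted p under 0.05 as lower and 1 as higher in edgeR, against 1.4% and 1.11% of all genes. At an unadjusted p under 0.05, 2 were lower and 2 higher, against 7.66% and 8.53% of all genes. These included Cenpa (-0.24 ± 0.08, SE), which also passed with the recovered factors, and H1f0 (0.28 ± 0.11). H2ax, the variant phosphorylated at DNA breaks, had 414 and 387 CPM before IAA against 331 and 316 after it, and the groups did not overlap. Its log2 fold change was -0.31 ± 0.06 (SE), with an adjusted p of 0.000921 in edgeR's quasi-likelihood test (Benjamini-Hochberg), and 0.127 without depletion replicate 2. Macroh2a1, a variant found on silent chromatin, had 476 and 413 CPM before IAA against 619 and 549 after it. It rose by 0.40 ± 0.06 with an adjusted p of 0.000150 in edgeR, and 0.0847 without depletion replicate 1. Both directions held under every scaling tried, Macroh2a1 reaching 0.29 and H2ax -0.41 with the recovered factors. H3f3a and H3f3b, which encode the H3 form that Hira and Daxx deposit and were singled out for that, stood at -0.11 ± 0.06 and -0.04 ± 0.07.

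Of the 8 stem cell markers tested, Utf1, a chromatin-associated pluripotency gene, fell by 0.61 on the log2 scale (SE 0.12), with an adjusted p of 0.00358 in edgeR's quasi-likelihood test. It had 38.8 and 46.9 CPM before IAA against 28.9 and 27.4 after it. It was the only one of the 8 past an adjusted p under 0.05 in edgeR, which passed 1.4% of all genes as lower. It did not pass in DESeq2 (adjusted p 0.256) or without control replicate 2, depletion replicate 1 or depletion replicate 2 (adjusted p 0.0739, 0.0519 and 0.0852 in edgeR). Pou5f1, Sox2 and Nanog stood between -0.13 and 0.05.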

How the data were processed

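PRO-seq libraries of mES cells were grouped by their labels (2 control, 2 depletion). The authors split off unique molecular identifiers, trimmed adapters with cutadapt 1.18 and mapped reads to mm10 with Bowtie 1.2.2, keeping uniquely placed reads. The deposited counts are whole numbers of identifier-collapsed nascent 3′ ends per gene on the transcribed strand, not normalized. The authors' DESeq2 table holds a mean normalized signal, fold changes and p-values. Only its mean signal was used, to recover 4 size factors by regression (0.699, 0.74, 1.32 and 1.24). The authors describe scaling by Drosophila spike-in, with a shared factor for the replicates of a condition. The recovered factors differ between replicates.

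Counts were fitted here with edgeR 4.0.16 in R 4.3.3 (filterByExpr with minimum count 10 and total 15, TMM, glmQLFit and glmQLFTest, condition only, Benjamini-Hochberg over 11853 genes). Calls needed an adjusted p under 0.05 and 2-fold. Alternatives covered scaling, DESeq2 1.42.0, limma-voom 3.58.1, filters, a replicate block and left-out libraries. The word CGCTCTAG, the alternatives for the listed genes and for the Ssrp1 to Supt16 ratio, and chaperone calls with no fold required in the other fits were added after seeing the data. CPM use TMM-adjusted totals. SE come from the F statistic and 95% intervals from its degrees of freedom. Positions are GENCODE M21. Tested on simulated data of 11853 genes, edgeR passed 91.6% of genes changed by -1 and 67.2% of those changed by -0.5 (log2). Of the genes that passed, 3.41% were false. Passing here meant an adjusted p under 0.05 with no fold required. The changed genes were drawn above a floor on mean count, and the simulated variability followed a smooth trend. These shares therefore do not describe the 2-fold calls or genes with few counts.

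The chaperone genes and the role lists were chosen with earlier results of these data known. Also named are Zfp574, list genes past the test (otherwise the 2 lowest and 2 highest per list), and the 5 genes most like Ssrp1. Replicates are biological replicates per the study's methods.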

Additional observations from a re-analysis of the deposited data

How the results depend on the processing

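Of the 10 chaperone genes described here, Ssrp1 alone was called lower and none was called higher under each alternative that kept all libraries. This held with or without the fold threshold. Its log2 fold change ran from -1.32 to -1.10 when 1 library was left out and from -1.31 to -1.20 otherwise. Fits with a left-out library assume that the lone sample varies like the other group. The Ssrp1 to Supt16 ratio after depletion was 0.412 to 0.476 of its control value when 1 library was left out. Asf1b ranged from -0.28 to 0.44 over the left-out libraries. Among genes averaging 100 counts or more, Asf1b and Daxx were not tested. Over all genes, 38 were called lower, 8 among those averaging 100 counts or more and 166 with no fold threshold. Recovered factors gave 57 and DESeq2 28. Genes called higher numbered 0, 132 with no fold threshold, 1 (Nxt2) with the replicate block, and 1 to 8 when 1 library was left out, the 8 without control replicate 2 including Egr1, Egr2, Egr3 and Fosb. Replicate differences over all genes correlated at 0.03 between control and depletion. Counting noise in genes with few counts weakens such a correlation, so it cannot settle whether the replicate numbers mark a pairing. Of the listed genes, 3 passed in the fit reported, 7 with library totals, 10 with the recovered factors, 5 among genes averaging 100 counts or more, 8 with the replicate block (Anp32a, Mcm3, Mcm5, Mcm7 and Npm1 beside the 3), and 1 to 4 when 1 library was left out, the 1 being H2ax without depletion replicate 1 and Macroh2a1 without depletion replicate 2. The cause of these shifts was not tested. Words of 7 or 9 bases led in 39.4 and 24.2% of the called genes, against 30.3% for 8. Ssrp1 held the leading word at 7 bases only. Among single genes and list medians, 44 other values moved by more than the replicate spread and 156 did not. Daxx and Asf1b rest on 31 to 75 counts in each library.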
